A study of Rattus norvegicus with 4 samples.

Results

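The 37 genes described here encode enzymes, carriers and membrane proteins that break down fatty acids in mitochondria and peroxisomes. They were taken from a list drawn up with earlier results of these data known. Each gene was represented by the probe set, annotated with that gene alone, that had the highest mean signal over the 4 arrays, and it was kept when at least 2 arrays exceeded a signal of 20.8. That left 35 of the 37 genes, of 9011 genes tested in all: 19 whose products are mitochondrial, 13 peroxisomal and 3 found in both places (Crat, Eci2 and Amacr). Acaa1a, the peroxisomal thiolase, had no probe set annotated with it alone and was not analysed here. The cytosolic thioesterase Acot1 lay just outside the limit, with signals of 15.3 and 9.6 on the obese arrays against 11.1 and 10.6 on the control arrays. Its mitochondrial relative Acot2 lay just inside, with 31.2 and 15.2 on the obese arrays against 18.6 and 22.3 on the control arrays.

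The samples were RNA from visceral fat of male Wistar rats, 130 days old in both groups, with 2 arrays of obese and 2 of control rats. No diet, genotype or other treatment is labelled for either group, and the origin of the obesity and any pooling of animals are not labelled. Nothing states that the 2 samples of a group came from separate animals, so the p-values rest on a spread that may be technical. With 2 arrays against 2, an exact two-sided test gives no p smaller than 0.333, so single values were read through a model fitted across all probe sets.

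In the mitochondrion, fatty acids are coupled to carnitine, carried across the inner membrane and shortened step by step to acetyl-CoA, and the electrons pass through the electron transfer flavoprotein to the respiratory chain. Peroxisomes shorten very long and branched chains first and hand the products on as carnitine esters. White fat stores more fatty acid than it burns, and the pathway is best known from liver, heart, muscle and brown fat. Many of its genes are targets of the PPAR nuclear receptors.

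Most of these genes had slightly higher signals in obese fat, in both organelles, and none passed the test. In limma, 0 of 35 had an adjusted p under 0.05 (range 0.457 to 0.999), where 0% of the 12929 probe sets tested did. At an unadjusted p under 0.05 there were 3 genes, Acaa2 and Etfdh with higher and Crot with lower signals in obese fat, which is 8.57% of 35 where 8.59% of all 9011 genes did so. A plain test without moderation also passed 0 of 35 and put 1 under an unadjusted p of 0.05. The same plain test put 882 of all 12929 probe sets under it. The mean log2 signal was higher in obese fat for 29 of 35 genes, where 43.4% of all genes were higher. The median log2 difference, obese minus control, was 0.14 over the 35 genes and -0.04 over all genes. The 2 obese readings both exceeded the 2 control readings for 12 of 35 (16.4% of all genes) and both lay below them for 2 of 35, Crot and Crat (24.0% of all genes). The differences were small: they ranged from -0.54 for Crot to 0.64 for Acaa2, with standard errors of 0.12 to 0.30. For 32 of the 35 genes the 95% interval of the difference lay within a 2-fold change in either direction, the exceptions being Acaa2, Echs1 and Abcd3, whose intervals reached just past a doubling.

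The highest readings were mostly on obese replicate 2, which gave the highest of the 4 readings for 23 of 35 genes (65.7%), against 23.6% of all genes. Obese replicate 1 was highest for 6, control replicate 2 for 5 and control replicate 1 for 1 gene. Without obese replicate 2, the number of genes higher in obese fat was 19 of 35 (54.3%), where 47.9% of all tested probe sets were higher, and the median difference was 0.03. It was 28 of 35 without obese replicate 1, with a median of 0.23. The median signal over the whole array was 75.0 on obese replicate 2, against 82.2 on obese replicate 1 and 83.1 and 82.8 on control replicates 1 and 2. Centring each array on its median gave 32 of 35 higher, where 55.9% of all tested probe sets were then higher, and quantile normalization gave 27 of 35, with 49.1% of all. Without 1 array the groups failed to overlap for 19 to 30 of the 35 genes (30 without obese replicate 1, 25 without obese replicate 2, 23 without control replicate 1), but among all probe sets 66.2% to 74.7% then failed to overlap.

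Fat cell markers were also highest on obese replicate 2. The 7 measured of 10 adipocyte markers, each above 20.8 on all 4 arrays, summed to a signal of 13470.4 and 16242.2 on obese replicates 1 and 2, against 13846.2 and 13347.6 on control replicates 1 and 2, and all 7 had their highest reading on obese replicate 2. The 8 measured of 10 macrophage markers were all lower in obese fat, 7 with groups that did not overlap, and summed to 4820.1 to 4890.1 on the obese arrays against 7271.9 to 9177.9 on the control arrays. The 5 measured of 6 mesothelial markers summed to 1629.0 and 366.2 on obese replicates 1 and 2, against 787.1 and 949.4 on the control arrays. The 7 measured of 9 brown fat markers summed to 849.3 and 1226.2 on the obese arrays against 701.1 and 695.5 on the control arrays. Cpt1b, also 1 of the 35 genes, is among them, and most of the sum was Cidea. The 10 skeletal muscle markers summed to 1037.6 and 1158.8 on the obese arrays against 1003.8 and 725.4 on the control arrays. Most of that sum was Myh1, with 738.3 and 905.0 on the obese arrays against 741.5 and 490.2 on the control arrays. The groups of Myh1 overlapped. Of the brown fat markers Dio2 and Cox8b lay under 20.8 on all 4 arrays, and the uncoupling protein Ucp1 had 25.8 and 33.9 on the obese arrays against 44.0 and 31.5 on the control arrays. Cidea, a lipid droplet protein also listed as a brown fat marker, had 663.8 and 1031.2 on the obese arrays against 513.9 and 560.2 on the control arrays, without overlap (log2 difference 0.62 ± 0.22, limma adjusted p = 0.560). Among muscle markers the troponin Tnni2 had 48.8 and 43.2 on the obese arrays against 28.9 and 35.1 on the control arrays, also without overlap (0.53 ± 0.21, adjusted p = 0.589), and the troponin Tnnt3 had 48.0 and 46.2 on the obese arrays against 67.4 and 50.1 on the control arrays, lower without overlap (-0.30 ± 0.22, adjusted p = 0.755). Of the 6 muscle markers tested 3 were higher and 3 lower, with a median of 0.03. Myh2, Myh4 and Mb were under 20.8 throughout, as were 4 of 5 kidney markers. Of the 8 liver markers, 5 were above 20.8 on all 4 arrays, and Apoa1 and Cps1 were under it throughout. The liver markers summed to 435.3 and 438.4 on obese replicates 1 and 2, against 319.3 and 443.9 on control replicates 1 and 2. Of the 6 liver markers tested, 4 were higher and 2 lower. Cidea, Myh1, Tnni2 and Tnnt3 were singled out after their values were seen. The part of these cell types in the differences below was not tested, and in whole tissue fewer cells of a type and less RNA per cell cannot be told apart.

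**Figure D1:**
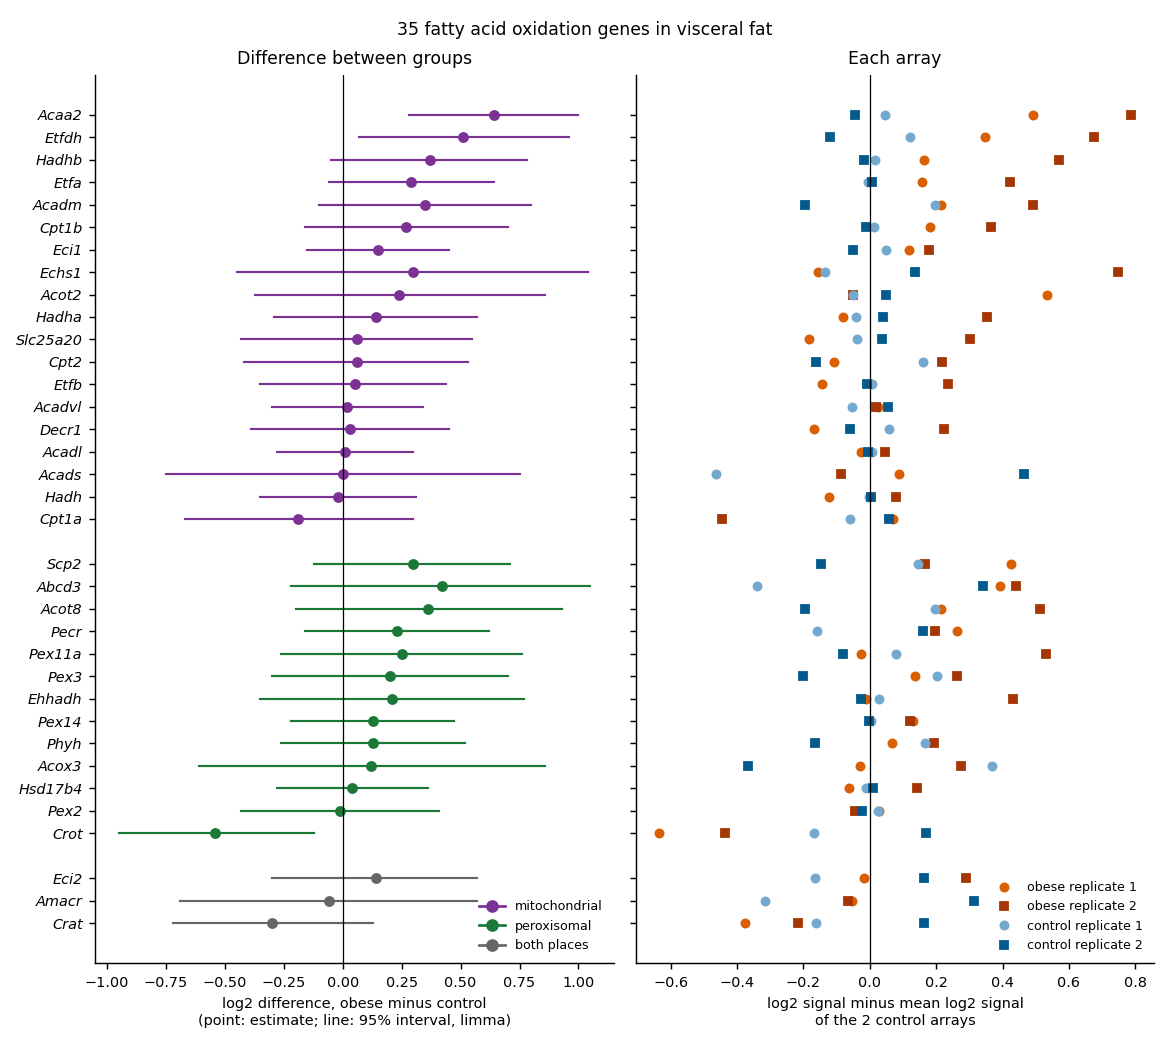
Left, log2 difference (obese minus control) of each of the 35 genes with its 95% interval from limma, grouped by the place of the protein and ordered by the moderated t; right, the log2 signal of each array minus the mean of the 2 control arrays. Most points lie to the right of 0 and most intervals cross it, Acaa2, Etfdh and Crot being the exceptions, and obese replicate 2 (dark squares) is the highest reading for 23 of the 35 genes.

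The promoters of Etfdh, Hadhb and Crot are shown because these genes had among the largest differences of either sign, Etfdh and Hadhb with higher and Crot with lower signals in obese fat. The sequences are from RefSeq on the rat assembly GRCr8 and run from 250 bases before to 50 bases after the annotated start, in the gene's own direction. Of the 37 genes, 32 had a promoter in that table, and Acaa2 had none. Etfdh lies on the minus strand with the window chr2:167060709-167061008, Hadhb on the minus strand with chr6:31907451-31907750 and Crot on the plus strand with chr4:26052874-26053173. Capitals mark a palindrome like that of the factor NRF1 on the opposite strand in Etfdh, the nuclear receptor core motif AGGTCA on the opposite strand in Hadhb, where it follows the annotated start, and a CCAAT box in Crot.
Etfdh: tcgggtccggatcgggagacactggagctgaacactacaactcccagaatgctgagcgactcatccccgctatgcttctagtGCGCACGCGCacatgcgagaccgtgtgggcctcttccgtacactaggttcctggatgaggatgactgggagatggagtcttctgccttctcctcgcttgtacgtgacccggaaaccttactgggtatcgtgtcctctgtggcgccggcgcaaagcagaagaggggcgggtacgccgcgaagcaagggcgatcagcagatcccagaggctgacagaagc
Hadhb: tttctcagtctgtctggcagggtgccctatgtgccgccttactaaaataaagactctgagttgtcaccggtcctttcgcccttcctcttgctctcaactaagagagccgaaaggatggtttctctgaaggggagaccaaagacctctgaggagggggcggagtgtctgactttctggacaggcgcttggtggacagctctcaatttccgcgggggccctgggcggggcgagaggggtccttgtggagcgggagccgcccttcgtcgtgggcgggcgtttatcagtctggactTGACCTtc
Crot: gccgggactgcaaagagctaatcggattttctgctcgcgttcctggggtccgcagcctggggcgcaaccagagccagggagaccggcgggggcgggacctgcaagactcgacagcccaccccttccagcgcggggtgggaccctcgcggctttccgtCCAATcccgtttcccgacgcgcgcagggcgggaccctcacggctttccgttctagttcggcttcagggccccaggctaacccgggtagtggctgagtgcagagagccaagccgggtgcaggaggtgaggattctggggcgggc
Motifs were searched by exact letters on both strands. The PPAR element, 2 copies of AGGTCA with any 1 base between them, was in 0 of 32 members' windows, where 0.0538% of all 33469 rat promoter windows of that length held it. Its core AGGTCA, which a full element would also contain, was in 8 of 32 (25%) where 16.2% of all windows held it, namely those of Acadvl, Acot8, Amacr, Echs1, Eci1, Eci2, Hadhb and Hsd17b4. The palindrome, GCGC, any base and then TGCGC, was in 4 of 32 (12.5%) where 4.25% of all held it, those of Abcd3, Amacr, Etfb and Etfdh. CCAAT was in 11 of 32 (34.4%) where 37.5% of all held it. These matches describe letters in a window and show no binding.

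Entry of fatty acids into the mitochondrion depends on carnitine. The list of carnitine transferases and the carrier holds 6 genes, including Crot and Crat, which are described below. It divided evenly, 3 higher and 3 lower in obese fat, with a median log2 difference of -0.07. Of the genes that serve entry itself, Cpt1a, Cpt1b, Cpt2 and Slc25a20, only Cpt1a was lower. Cpt1a, the outer membrane transferase that limits entry in liver, had signals of 302.7 and 211.5 on the obese arrays against 276.5 and 300.1 on the control arrays, and its groups overlapped (log2 difference -0.19 ± 0.20, SE; limma adjusted p = 0.836). Its low reading was on obese replicate 2 alone, and its second probe set gave -0.24 ± 0.22, also with the lowest reading there. Without that array Cpt1a gave 0.07. Cpt1b, the muscle form that rat fat cells also use, had 92.6 and 105.3 on the obese arrays against 82.4 and 81.0 on the control arrays, groups that did not overlap (0.27 ± 0.17, adjusted p = 0.726). Thus both forms of the same enzyme differed in sign, but each interval included 0 (-0.67 to 0.30 for Cpt1a, -0.16 to 0.70 for Cpt1b). The carrier Slc25a20 and the inner membrane transferase Cpt2 overlapped between groups, at 0.06 ± 0.20 and 0.06 ± 0.19.

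The other carnitine transferases were the members with lower signals on both obese arrays. Crot, the peroxisomal octanoyltransferase that prepares shortened chains for export, had 195.2 and 223.9 on the obese arrays against 269.6 and 340.4 on the control arrays. This is a log2 difference of -0.54 ± 0.17, or 0.69-fold (95% interval 0.518 to 0.920), with an adjusted p of 0.522 in limma. A second Crot probe set had 123.0 and 154.2 on the obese arrays against 199.6 and 185.9 on the control arrays (-0.48 ± 0.17), again without overlap. Without any 1 array the difference stayed between -0.70 and -0.37. Crat, the acetyltransferase of mitochondria and peroxisomes that buffers acetyl-CoA, had 142.4 and 159.0 on the obese arrays against 165.2 and 206.9 on the control arrays (-0.30 ± 0.17, adjusted p = 0.694). Its interval, -0.72 to 0.13, included 0, and its groups were separated by a narrow margin.

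The acyl-CoA dehydrogenases, which take the first step of each round for chains of different length, had a median difference of 0.02. Acadm, for medium chains, had 553.7 and 671.4 on the obese arrays against 546.8 and 417.0 on the control arrays (0.35 ± 0.18, adjusted p = 0.671). Its lower obese and higher control readings almost met. The long-chain enzymes Acadl and Acadvl differed by 0.01 ± 0.12 and 0.02 ± 0.13, among the narrowest intervals of all members (-0.28 to 0.30 and -0.30 to 0.34). Acads, for short chains, had 229.9 and 203.6 on the obese arrays against 156.7 and 298.0 on the control arrays. Its 2 control readings enclosed both obese ones, so its difference of 0.00 ± 0.30 bounds the change only to between -0.75 and 0.75.

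Later steps of the round held the largest difference of any member. Acaa2, the mitochondrial thiolase that releases acetyl-CoA, had 427.5 and 524.0 on the obese arrays against 313.4 and 294.4 on the control arrays. It averaged 475.8 ± 68.2 in obese and 303.9 ± 13.4 in control fat (SD, n = 2 each), a log2 difference of 0.64 ± 0.15 or 1.56-fold (95% interval 1.21 to 2.01), with an adjusted p of 0.457 in limma over all probe sets. Every obese reading exceeded every control reading, and without any 1 array the difference stayed between 0.49 and 0.79. Hadhb, the thiolase subunit of the trifunctional protein, had 841.0 and 1115.0 on the obese arrays against 760.0 and 742.9 on the control arrays (0.37 ± 0.17, adjusted p = 0.631), and 0.16 without obese replicate 2. Its partner subunit Hadha, which carries the hydratase and dehydrogenase, had 652.1 and 880.9 on the obese arrays against 671.0 and 709.7 on the control arrays (0.14 ± 0.17). The annotated starts of Hadha and Hadhb lie 301 bases apart on opposite strands and point away from each other, and for both genes obese replicate 2 was the highest reading.

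Echs1, the short-chain hydratase, had 221.1 and 413.3 on the obese arrays against 224.3 and 270.4 on the control arrays. Obese replicate 2 stood apart from the other 3 readings, and the standard error of 0.30 was as large as the difference of 0.30. Hadh, the short-chain hydroxyacyl dehydrogenase, differed by -0.02 ± 0.13. Of the enzymes that let unsaturated fatty acids enter the round, the isomerase Eci1 had 474.6 and 495.3 on the obese arrays against 452.4 and 422.7 on the control arrays (0.15 ± 0.12), a small difference without overlap. The isomerase Eci2 and the reductase Decr1 overlapped, at 0.14 ± 0.18 and 0.03 ± 0.17.

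Electrons from the acyl-CoA dehydrogenases leave through the electron transfer flavoprotein. Its dehydrogenase Etfdh, which passes them to ubiquinone, had 182.9 and 229.8 on the obese arrays against 156.4 and 132.2 on the control arrays, with no overlap. That is 206.4 ± 33.2 in obese and 144.3 ± 17.1 in control fat (SD, n = 2 each), a log2 difference of 0.51 ± 0.18 or 1.43-fold (95% interval 1.05 to 1.94; limma adjusted p = 0.557), and 0.35 to 0.68 without any 1 array. The alpha subunit Etfa had 665.0 and 800.1 on the obese arrays against 593.9 and 599.2 on the control arrays, groups that did not overlap (0.29 ± 0.14, adjusted p = 0.654). The beta subunit Etfb had 643.5 and 836.0 on the obese arrays against 714.1 and 707.1 on the control arrays (0.05 ± 0.16). Obese replicate 1 gave the lowest Etfb reading and obese replicate 2 the highest. Etfa was thus higher on both obese arrays and Etfb on 1 of them. Both intervals included 0 and overlapped (-0.06 to 0.64 for Etfa, -0.35 to 0.44 for Etfb), and no test compared the subunits. Among the thioesterases, which free fatty acids from CoA, Acot2 differed by 0.24 ± 0.25, a size that depends on the floor because 2 of its readings lay under 20.8. The peroxisomal thioesterase Acot8 had 68.2 and 83.9 on the obese arrays against 67.3 and 51.3 on the control arrays (0.36 ± 0.23, adjusted p = 0.719), and its nearest obese and control readings almost met.

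**Figure D2:**
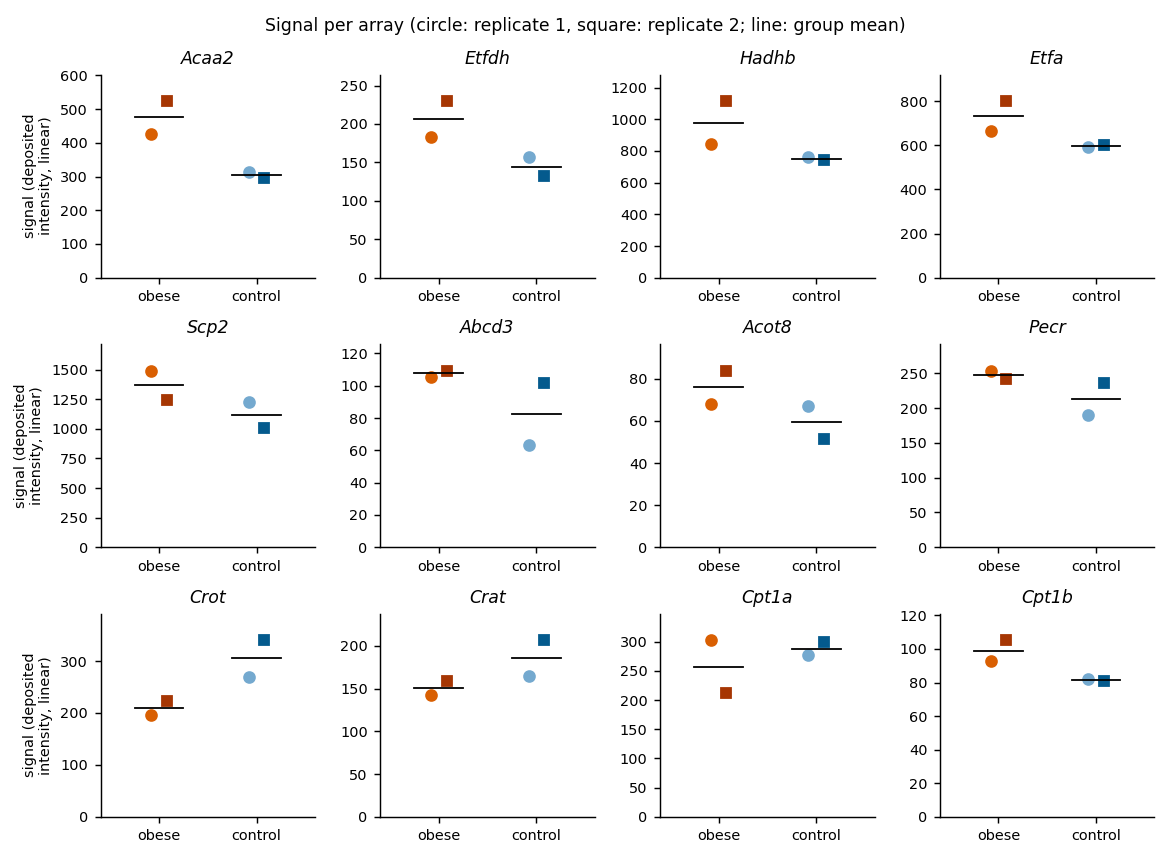
Signal (deposited linear intensity, axis from 0) of 12 genes on each array, obese left and control right, with a line at the mean of each group of 2. Acaa2, Etfdh, Hadhb and Etfa are higher on both obese arrays, Crot and Crat lower, and Cpt1a is low on obese replicate 2 only.

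Of the 7 peroxisomal enzymes tested (Amacr included), 6 had higher mean log2 signals in obese fat, 2 of them without overlap (16.4% of all genes), with a median difference of 0.13. Scp2, whose long form is the thiolase for branched chains and whose short form is a sterol carrier, had 1491.8 and 1245.7 on the obese arrays against 1229.7 and 1003.2 on the control arrays. Its groups were separated by a margin far smaller than the spread within either (0.30 ± 0.17, adjusted p = 0.694), and a second probe set gave 0.29 ± 0.15. Pecr, the trans-2-enoyl-CoA reductase, had 254.0 and 242.5 on the obese arrays against 189.6 and 236.4 on the control arrays (0.23 ± 0.16), also with a narrow gap between the groups. The multifunctional enzymes Ehhadh and Hsd17b4, which hydrate and dehydrogenate the chain, differed by 0.21 ± 0.23 and 0.04 ± 0.13. Ehhadh had 37.5 and 51.0 on the obese arrays against 38.5 and 37.1 on the control arrays, so only obese replicate 2 stood apart. The branched-chain oxidase Acox3 differed by 0.12 ± 0.30. Phyh, which starts alpha-oxidation of phytanic acid, differed by 0.13 ± 0.16, and the racemase Amacr by -0.06 ± 0.26.

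Of the 5 genes for membrane transport and biogenesis of the peroxisome, 4 had higher mean log2 signals in obese fat, 2 without overlap (16.4% of all genes), with a median of 0.20. Abcd3, the membrane transporter PMP70 that imports branched and long chains, had 105.7 and 109.4 on the obese arrays against 63.6 and 102.0 on the control arrays (0.42 ± 0.26, adjusted p = 0.716). Only control replicate 1 was low, and the difference was 0.08 without it. Pex11a, which promotes peroxisome division and is a PPARalpha target in rodents, had 280.9 and 413.6 on the obese arrays against 302.6 and 270.7 on the control arrays (0.25 ± 0.21). Its second probe set gave 0.19 ± 0.25, and both were highest on obese replicate 2. The docking protein Pex14 had 160.5 and 159.4 on the obese arrays against 147.0 and 146.3 on the control arrays (0.13 ± 0.14), groups that did not overlap and whose replicates lay close together. Pex3, needed to build the membrane, differed by 0.20 ± 0.20, and the ubiquitin ligase Pex2 by -0.01 ± 0.17.

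Mitochondrial and peroxisomal members gave similar counts and medians. Of 19 mitochondrial genes, 17 had a higher mean log2 signal in obese fat and 7 did so without overlap, with a median difference of 0.14, where 43.4% of all genes were higher and 16.4% were higher without overlap. Of 13 peroxisomal genes, 11 were higher and 5 did so without overlap, with a median of 0.20. The medians differed by -0.07, mitochondrial minus peroxisomal, where the pooled SD between replicate arrays of that quantity was 0.08, and the sign turned in 3 of the 4 fits without 1 array, to 0.04 without control replicate 2 or obese replicate 1 and to 0.01 without obese replicate 2. No test of this difference was made, since genes are not replicates. Relative to each gene's mean over 4 arrays, the mitochondrial median was 0.01 and 0.21 on obese replicates 1 and 2, against -0.07 on both control arrays. The peroxisomal median was 0.03 and 0.13 on obese replicates 1 and 2, against 0.00 and -0.13 on control replicates 1 and 2. The mitochondrial median thus set obese replicate 2 apart from 3 like arrays, while the peroxisomal median was also lower on control replicate 2. The pooled SD of these medians between replicate arrays was 0.10 and 0.08, and the contrast was not tested. Control replicate 2 exceeded control replicate 1 for 0 of the 4 Pex genes and 4 of the 9 other peroxisomal genes. It did so for 9 of 19 mitochondrial genes and 51.1% of all genes.

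**Figure D3:**
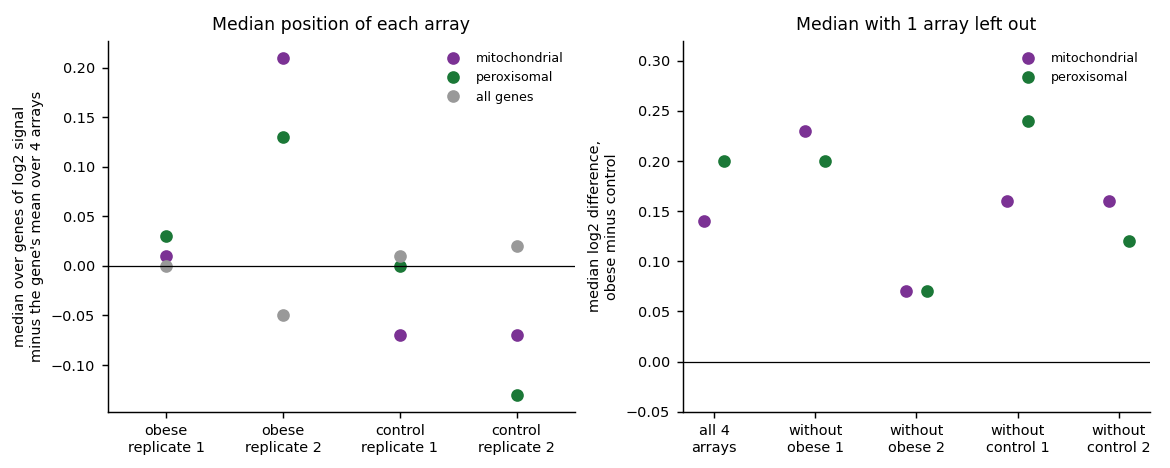
Left, median over genes of the log2 signal minus the gene's own mean over 4 arrays, for 19 mitochondrial, 13 peroxisomal and all 9011 genes; right, median log2 difference (obese minus control) with all 4 arrays and with each array left out. Obese replicate 2 is highest for both groups of genes (0.21 and 0.13) although all genes have -0.05 there, and without it both medians are 0.07.

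Further genes of the pathway were read from lists. Of 13 tested genes for acyl-CoA synthesis and handling, 9 were higher in obese fat, 7 of them without overlap, where 43.4% of all genes were higher and 16.4% were higher without overlap. The acyl-CoA binding protein Dbi had 1161.4 and 1796.2 on the obese arrays against 927.8 and 939.8 on the control arrays, a log2 difference of 0.63 ± 0.22 (limma adjusted p = 0.557), and 0.31 without obese replicate 2. The long-chain synthetase Acsl1 differed by 0.19 ± 0.16, and the carnitine importer Slc22a5 was lower on both obese arrays (-0.26 ± 0.17), the same sign as Crot and Crat. Of 13 other mitochondrial oxidation enzymes, 12 were higher (43.4% of all genes) with a median of 0.08, from 0.57 ± 0.19 for the epimerase Mcee of propionate breakdown to -0.15 ± 0.24 for Acad10. Of 21 other peroxisomal proteins 12 were higher, a share of 57.1% against 43.4% of all genes, with a median of 0.08. Among them the very long-chain importer Abcd2 had 522.6 and 774.4 on the obese arrays against 467.0 and 461.9 on the control arrays (0.45 ± 0.20, and 0.17 without obese replicate 2), and the polyamine oxidase Paox differed by -0.22 ± 0.16. Of 2 tested ketone body enzymes, Oxct1 differed by 0.25 ± 0.12 and Acat1 by -0.12 ± 0.16.

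Regulators gave no common direction, with 11 of 19 tested genes higher (43.4% of all genes) and a median of 0.04. Ppara, the receptor that drives the pathway in liver, lay under 20.8 on all 4 arrays (3.4 to 5.0), as did its coactivator Ppargc1a (0.4 to 0.6). Acetyl-CoA carboxylase Acaca, which makes the malonyl-CoA that inhibits Cpt1, had 627.3 and 723.0 on the obese arrays against 505.4 and 337.8 on the control arrays (0.70 ± 0.21, adjusted p = 0.522). On this probe set it was therefore higher on both obese arrays alongside Acaa2 and Etfdh. The mean over its 2 probe sets gave a smaller log2 difference of 0.50. Acacb, the other acetyl-CoA carboxylase of the list, lay under 20.8 on all 4 arrays (10.2 to 19.8) and was named after its values were seen. The clock repressor Nr1d1 had 138.0 and 97.3 on the obese arrays against 173.0 and 175.0 on the control arrays (-0.59 ± 0.21, adjusted p = 0.557). No gene in these 5 lists passed limma's test over all probe sets, and 5 of the 67 different genes tested in them (7.46%, against 8.59% of all genes) had an unadjusted p under 0.05: Dbi, Mcee, Acaca, Nr1d1 and the acetyl-CoA synthetase Acss2, the last named after its values were seen.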

How the data were processed

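Each array has 1 deposited intensity per probe set, linear and never negative. The software and normalization the authors used are not stated in the labels or the table. Judged by the values, the arrays had been scaled alike: means after trimming 2% at each end lay between 149.6 and 149.77. Of 15923 probe sets, 57 controls were left out. GEO's platform annotation gave 1 symbol to 12783 of the others, several to 312 and none to 2771. Of the 12783, 12748 were found by gene identifier in RefSeq for GRCr8, and 0 symbols changed.

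Signals under 20.8, the 20th percentile of all signals, were set to that floor before log2. The 12929 probe sets above the floor on at least 2 arrays were fitted with limma 3.58.1 in R 4.3.3 (eBayes with a trend, 5.83 degrees of freedom), as a two-sided test of obese minus control with all p-values adjusted together by Benjamini-Hochberg. The code was tested on simulated data. Errors of log2 differences are moderated standard errors. No detection calls were used, and precision is limited by having 2 arrays per group.

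The members, their lists and their grouping were chosen with earlier results of these data known. Every member was named. From each other list the genes with the largest and smallest t were named, and Acsl1, Ppara, Ppargc1a, Ucp1 and Adipoq always (Adipoq had no probe set annotated with it alone). A further gene of that rule is not reported here. Alternatives were 3 scalings, 2 floors at the 10th and 40th percentiles, a pseudocount of 16, 2 filters, 2 variance models, a replicate block, each array left out, averaging all probe sets of a gene, and other assignments of location.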

Additional observations from a re-analysis of the deposited data

How the results depend on the processing

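No member passed an adjusted p of 0.05 under any of the 16 alternatives, the replicate block included (0 of 35 with the block, and limma's lowest adjusted p was 0.471). Replicate numbers are shared by the groups, and the deviations of same-numbered samples were nearly uncorrelated (r = 0.048 across probe sets). That value cannot settle whether same-numbered samples share more than a number, which the labels do not state. When 1 array is left out, its group keeps 1 sample, whose spread is taken from the other group. The number of members past the threshold was then 0 in each fit, of members whose groups did not overlap 19 to 30 (14 with all arrays), and of members higher in obese fat 19 to 28 (29 with all arrays). The median was 0.07 to 0.23 for mitochondrial and 0.07 to 0.24 for peroxisomal members, and their difference -0.08 to 0.04. Fewer arrays separate more easily, and the cause of the other shifts was not tested. Among the other alternatives, median centring gave 3 members lower in obese fat, quantile normalization 8 and the pseudocount 7 (6 otherwise). Without overlap, 1 was lower with median centring and 3 with quantile normalization or cyclic loess (2 otherwise). Scaling also moved the other probe sets. Of all tested probe sets, 15.6% were higher without overlap as deposited and 22.1% with median centring. That share was 18.7% with quantile normalization and 19.0% with cyclic loess. Under these 3 scalings, 38.8% to 39.4% failed to overlap in either direction. The member counts without overlap cannot be read apart from that shift. In the plain test, 1 member was under an unadjusted p of 0.05, where 882 of all 12929 probe sets were. With no filter the count was also 1, where 1159 of 15866 probe sets were. It was 2 with median centring, where 1023 of 12929 probe sets were, and 3 otherwise. Apart from leaving out an array, the mitochondrial median ranged from 0.08 (pseudocount) to 0.21 (median centring) and the peroxisomal median from 0.14 to 0.28. The pooled SD of the medians between replicate arrays was 0.10 for mitochondrial and 0.08 for peroxisomal members. The largest peroxisomal move, from 0.20 to 0.28, was about as large as that spread.

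Signs turned for the following genes. With quantile normalization Acadl gave -0.03, Decr1 -0.06, Etfb -0.02, Hsd17b4 -0.03, Pex2 0.06 and Amacr 0.02. With cyclic loess Acadl gave -0.02, Decr1 -0.02, Pex2 0.07 and Amacr 0.03, and with median centring Hadh gave 0.06, Pex2 0.07 and Amacr 0.02. Acads gave -0.003 with the pseudocount. Over the fits without 1 array the ranges that crossed 0 were -0.45 to 0.07 for Cpt1a, -0.11 to 0.22 for Cpt2, -0.18 to 0.30 for Slc25a20, -0.03 to 0.05 for Acadl, -0.46 to 0.47 for Acads, -0.03 to 0.08 for Acadvl, -0.08 to 0.35 for Hadha and -0.12 to 0.08 for Hadh. They were -0.16 to 0.75 for Echs1, -0.17 to 0.23 for Decr1, -0.14 to 0.23 for Etfb, -0.05 to 0.53 for Acot2, -0.24 to 0.49 for Acox3, -0.01 to 0.43 for Ehhadh, -0.06 to 0.14 for Hsd17b4, -0.04 to 0.30 for Phyh and -0.04 to 0.03 for Pex2. They were -0.0021 to 0.40 for Pex3, -0.03 to 0.53 for Pex11a, -0.03 to 0.30 for Eci2, -0.37 to 0.26 for Amacr, and among genes of the other lists -0.48 to 0.19 for Acad10 and -0.28 to 0.04 for Acat1. Of 47 genes, 14 changed sign without obese replicate 2, 7 without control replicate 2 and 4 each without obese replicate 1 or control replicate 1. A further 15 kept their sign but moved by over 1.5 times without obese replicate 2, 15 without control replicate 2, 21 without obese replicate 1 and 17 without control replicate 1, Dbi (0.31 to 0.94) and Abcd2 (0.17 to 0.74) among them.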
